A study of Rattus norvegicus with 4 samples.

Results

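The 45 genes described here are rat genes of the metalloprotease families ADAM and ADAMTS, the ADAMTS-like proteins (ADAMTSL) and the tissue inhibitors of metalloproteinases (TIMP). They were taken by gene symbol from a table of 17899 rat genes, and comprise 18 ADAM, 18 ADAMTS, 5 ADAMTSL and 4 TIMP genes. Of these, 34 reached 1 TPM (a length-normalised measure of a transcript's share of its library) in at least 2 libraries and were compared between groups. The 11 others stayed below that level and are named at the end.

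Messenger RNA came from synovium, the lining tissue of the joint, of rats (Rattus norvegicus) with osteoarthritis, in 4 bulk libraries. AdMSC 1 was made from tissue injected with human AdMSCs and SyMSC 1 from tissue injected with human SyMSCs. PBS 1 and PBS 2 were made from tissue that had received PBS, which is buffered saline. The abbreviations are those of the labels, where MSC commonly stands for mesenchymal stem cells and the prefixes for adipose and synovial origin. All 4 libraries carry the label osteoarthritis, so no healthy synovium enters any comparison. Tissue of the cell-injected joints was taken the next day. The titles set PBS 1 beside AdMSC 1 (Ad arm) and PBS 2 beside SyMSC 1 (Sy arm). They mark the injected libraries with the word inj and the PBS libraries with the word mix. The labels used here do not say what mix means, so what was mixed for the PBS libraries is unknown. Rat strain, age, sex, how osteoarthritis was induced, and whether libraries came from separate or pooled animals are not stated in the labels used here. P-values therefore measure only the spread between these libraries, which may be technical. The spread between the injected libraries also holds any difference between the cell sources, since each source had 1 library.

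ADAM proteins sit in the cell membrane, and those with a zinc-binding site shed the outer parts of other membrane proteins, such as cytokine precursors, receptors and adhesion molecules. ADAMTS proteases are secreted and cut matrix proteins. Several of them cleave the proteoglycans aggrecan and versican, and Adamts4 and Adamts5 are the enzymes best known for the loss of aggrecan from cartilage in osteoarthritis. ADAMTSL proteins resemble ADAMTS proteases but have no protease domain, and several bind microfibrils of fibrillin. TIMPs block matrix metalloproteinases, and Timp3 also blocks Adam17 and the aggrecanases.

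The number of genes at 1 TPM or more ran from 12582 in SyMSC 1 to 13155 in PBS 1, and read depth is unknown because TPM does not keep it. Markers of synovial lining fibroblasts were present throughout: Prg4 lay between 2448 and 4192 TPM and Pdpn between 189 and 287 TPM. Beside the counts that follow, 23.7% of the 13371 genes tested rose and 24.7% fell (limma adjusted p under 0.05). Leukocyte markers were higher after cell injection. Of 7 neutrophil genes 5 rose (1 to 5 when a library was left out), and their summed level lay at 92.8 to 303 TPM with PBS and 2288 to 4022 TPM after injection. Of 8 monocyte and macrophage genes 7 rose, with sums of 9620 and 10915 TPM against 25496 and 34857 TPM. Most of each sum was Lyz2, named here after its values were seen (8163 and 9237 TPM against 19301 and 27210 TPM). Stromal markers were lower. Of 8 fibroblast genes 6 fell (sums of 38408 and 31264 TPM against 16946 and 11522 TPM), as did 6 of 7 endothelial genes (613 and 678 TPM against 247 and 205 TPM) and 7 of 7 mural genes (3112 and 3975 TPM against 875 and 676 TPM). No gene of these 5 lists was at 0 in any library. Of 6 genes of T and NK cells 4 rose (sums of 33.7 and 28.5 TPM against 216 and 259 TPM). In AdMSC 1 and SyMSC 1 most of these sums came from Cd2 (86.6 and 104.5 TPM) and Cd8a (109 and 125.5 TPM). Cd3e rose less, from 4.36 and 6.24 TPM to 9.33 and 11.09 TPM. The 2 genes that did not pass include Nkg7, named here after its values were seen, which lay below both PBS libraries after injection. Of 5 tested skeletal muscle genes 2 fell (1 to 4 with a library left out; sums of 1264 and 461 TPM against 95.02 and 127 TPM), as did 1 of 4 adipocyte genes (0 to 4; 522 and 1468 TPM against 222 and 261 TPM). Neither the 2 tested chondrocyte genes nor the 3 red cell genes passed (limma adjusted p from 0.0517 to 0.552), and the red cell sum ranged from 5306 TPM in AdMSC 1 to 21673 TPM in PBS 1. The part of these cell types in the changes below was not tested, and in bulk tissue fewer cells of a type and less RNA per cell cannot be told apart.

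Set against PBS (n = 2), synovium that had received human cells (AdMSC 1 and SyMSC 1, n = 2) carried more Adam8, Timp1, Adamts1, Adamts4, Adamts5, Adam10, Adam15 and Adam19, and less of 19 other genes. The falls took in Timp2, Timp3 and Timp4, both tested procollagen N-proteinases, 5 of 6 tested ADAMTS genes outside the proteoglycan-cleaving and procollagen-cleaving groups, and 4 of 5 ADAMTSL genes. With limma and an adjusted p under 0.05, 8 of 34 genes rose, 19 fell and 7 did not pass. Over all 13371 genes tested, 48.4% passed, 23.7% as rises and 24.7% as falls. The counts within smaller groups below stand beside the same shares. The median log2 change of the 34 genes was -0.86, beside 0.00087 over all tested genes. These counts are descriptions, since 5 of the 34 (Adam1a, Adam22, Adamts17, Adamtsl2 and Adamtsl3) reached 1 TPM only in the PBS libraries. All log2 changes are differences of log2(TPM + 1) and understate the change of low genes. When 1 library was left out, between 5 and 7 genes rose and between 13 and 18 fell, the lowest count of rises (5) without PBS 1.

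**Figure D1:**
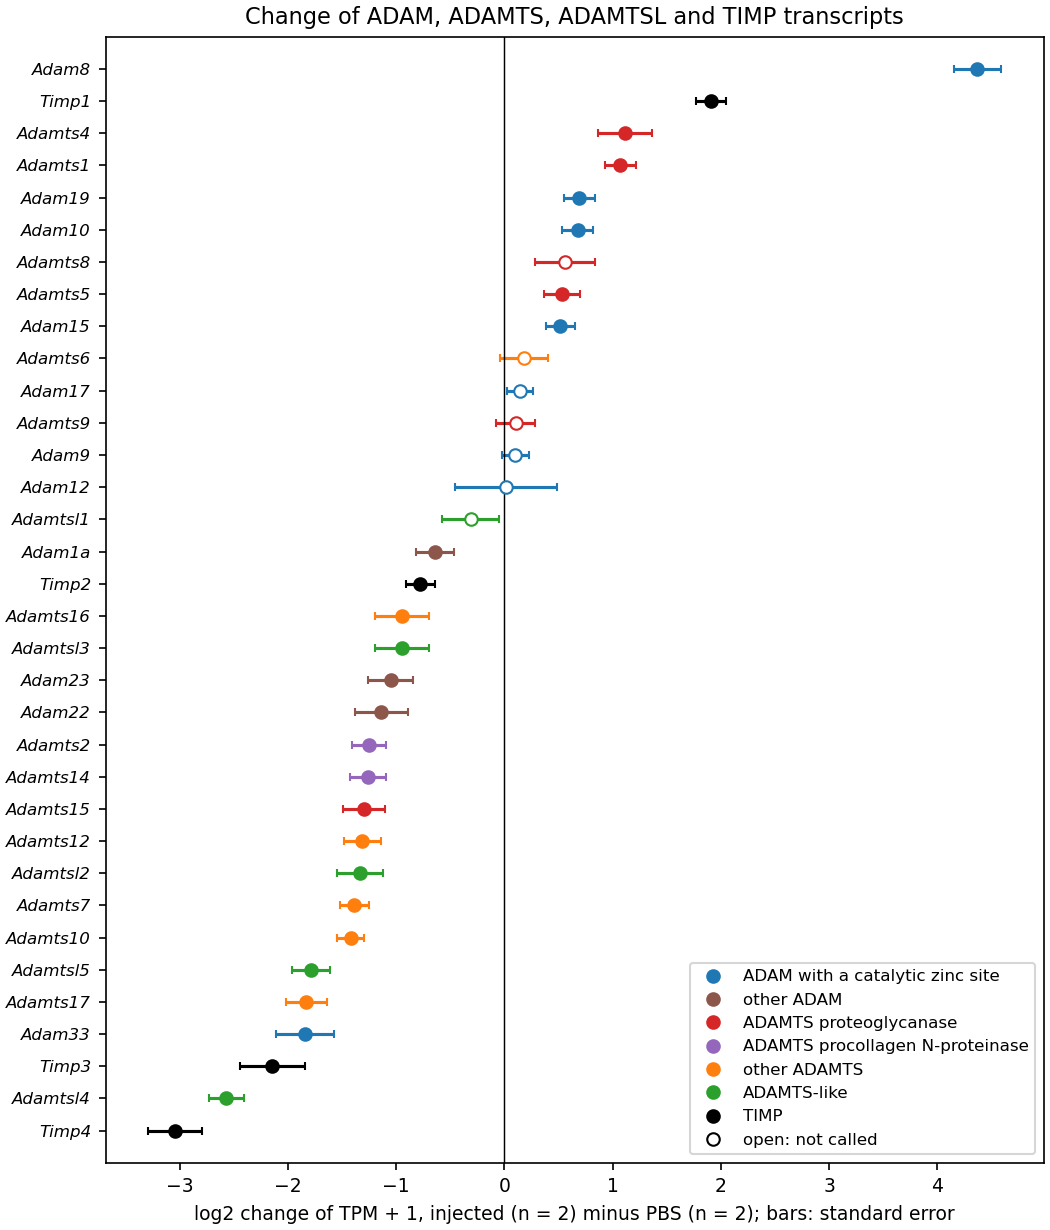
Log2 change of TPM + 1 (injected minus PBS, horizontal axis) for the 34 genes tested, ordered by size, with bars for the limma standard error and open symbols for genes that did not pass. Adam8 stands apart at 4.37, and Timp4 lies at the other end at -3.04.

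The inhibitors divided. Timp1 rose, while Timp2, Timp3 and Timp4 fell, and each of these 4 calls held under all 10 alternatives tried. Timp1, a broad inhibitor of matrix metalloproteinases, stood at 1159 TPM in PBS 1, 993 TPM in PBS 2, 3905 TPM in AdMSC 1 and 4155 TPM in SyMSC 1. Both injected libraries lay far above both PBS libraries, and the mean was 3.75-fold higher (log2 change 1.91 with a standard error of 0.14, limma adjusted p = 0.000375). Timp2, which also helps to activate the gelatinase precursor pro-MMP2 at the cell surface, went from 956 and 912 TPM to 583 and 508 TPM (log2 change -0.78 with a standard error of 0.13, limma adjusted p = 0.00457). Timp3, the inhibitor that is held in the matrix, stood at 209 TPM in PBS 1, 222 TPM in PBS 2, 65.2 TPM in AdMSC 1 and 35.05 TPM in SyMSC 1. The PBS libraries were close to each other and the injected ones were well below them, with the lower value in SyMSC 1 (log2 change -2.15 with a standard error of 0.30, limma adjusted p = 0.00443). Timp4, the inhibitor with the narrowest tissue range, went from 19.9 and 32.8 TPM to 2.39 and 2.07 TPM, 11.8-fold lower by the means (log2 change -3.04 with a standard error of 0.25, limma adjusted p = 0.000511). In all 3 falls the groups did not overlap, as in 78.8% of all tested genes.

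**Figure D2:**
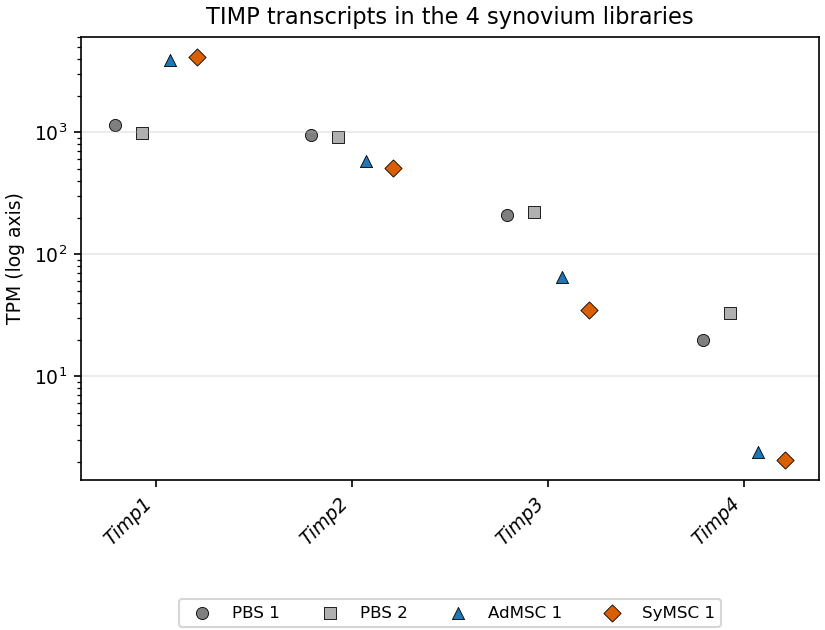
TPM of the 4 TIMP genes (logarithmic vertical axis), 1 symbol per library. Timp1 is at 993 and 1159 TPM with PBS and 3905 and 4155 TPM after injection, while the injected libraries lie below both PBS libraries for Timp2, Timp3 and Timp4.

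The make-up of the inhibitors differed between the groups. Timp1 made up 49.5% and 46.0% of the summed TIMP level in PBS 1 and PBS 2, and 85.7% and 88.4% in AdMSC 1 and SyMSC 1. Timp3 made up 8.91% and 10.3% with PBS and 1.43% and 0.746% after injection. With PBS the Timp1 level was 1.21 and 1.09 times that of Timp2, and after injection it was 6.69 and 8.18 times. The sum of Timp2 to Timp4 went from 1176 ± 12.7 TPM (SD, n = 2) to 598 ± 74.8 TPM (SD, n = 2), and the sum of all 4 from 2252 ± 130 TPM to 4628 ± 102 TPM (SD, n = 2). Set against enzymes that Timp3 blocks, its level was 4.81 and 5.27 times that of Adam17 in the PBS libraries, and 1.38 and 0.738 times in AdMSC 1 and SyMSC 1. Against the summed level of Adamts4 and Adamts5 it was 15.5 and 18.8 times with PBS, and 3.23 and 1.32 times after injection. These ratios are of transcript levels, per length, and were not tested.

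The 250 bases before the annotated start are shown for the TIMP genes, whose members moved in opposite directions, and for Adam8 and Adamtsl4, the protease with the largest rise and the ADAMTSL gene with the largest fall. They are RefSeq sequences of the assembly GRCr8, written in the direction of transcription, and capitals mark the letters GGGCGG or its reverse complement, the GC box that the factor Sp1 is known to bind. The Timp4 window holds none.
Timp1, chrX:3771123-3771372, minus strand: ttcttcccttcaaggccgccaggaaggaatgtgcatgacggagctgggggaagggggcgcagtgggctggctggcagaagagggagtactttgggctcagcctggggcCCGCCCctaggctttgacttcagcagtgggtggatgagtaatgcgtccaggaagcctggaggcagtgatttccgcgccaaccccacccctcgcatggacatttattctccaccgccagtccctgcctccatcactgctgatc
Timp2, chr10:104089215-104089464, minus strand: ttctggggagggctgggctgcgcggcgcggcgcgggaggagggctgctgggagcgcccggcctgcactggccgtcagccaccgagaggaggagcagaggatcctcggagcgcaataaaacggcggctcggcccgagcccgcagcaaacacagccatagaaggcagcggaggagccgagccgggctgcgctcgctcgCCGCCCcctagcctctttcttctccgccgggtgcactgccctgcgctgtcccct
Timp3, chr7:19459559-19459808, minus strand: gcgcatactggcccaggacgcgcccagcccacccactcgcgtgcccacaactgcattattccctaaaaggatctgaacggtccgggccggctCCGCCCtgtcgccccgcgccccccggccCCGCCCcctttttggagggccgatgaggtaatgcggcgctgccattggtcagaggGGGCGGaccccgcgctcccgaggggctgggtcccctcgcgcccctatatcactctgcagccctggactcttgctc
Timp4, chr4:149985205-149985454, minus strand: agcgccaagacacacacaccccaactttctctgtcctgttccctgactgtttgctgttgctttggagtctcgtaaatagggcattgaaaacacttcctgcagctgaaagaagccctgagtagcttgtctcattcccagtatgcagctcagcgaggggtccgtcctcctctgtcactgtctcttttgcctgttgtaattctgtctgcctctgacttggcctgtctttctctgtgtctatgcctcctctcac
Adam8, chr1:204218323-204218572, minus strand: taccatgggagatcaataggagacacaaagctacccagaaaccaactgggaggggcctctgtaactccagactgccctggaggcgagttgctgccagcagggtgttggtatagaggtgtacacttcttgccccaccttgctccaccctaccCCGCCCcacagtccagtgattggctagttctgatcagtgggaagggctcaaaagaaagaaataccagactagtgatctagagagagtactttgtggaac
Adamtsl4, chr2:185935797-185936046, minus strand: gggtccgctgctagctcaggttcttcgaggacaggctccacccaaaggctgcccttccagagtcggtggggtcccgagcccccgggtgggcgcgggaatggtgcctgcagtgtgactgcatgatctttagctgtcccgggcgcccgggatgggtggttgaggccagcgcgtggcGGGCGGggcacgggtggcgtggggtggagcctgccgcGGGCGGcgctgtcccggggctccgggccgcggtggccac
Of the 45 genes 33 had an entry in the RefSeq promoter table, found by gene ID; those without are Adam2, Adam9, Adam11, Adam23, Adam28, Adam32, Adam33, Adamts5, Adamts8, Adamts15, Adamts16 and Adamts19. The GC box letters occur, on either strand, in 21 of 33 of these windows and in 32.4% of 27457 rat windows of the same length. By call they are in 6 of 7 genes that rose, 9 of 15 that fell and 4 of 5 that did not pass. The median GC content was 62.8% for genes that rose, 69.6% for those that fell and 66.8% for those that did not pass. Over all windows it was 52%. The AP-1 letters TGANTCA were found in 1 of 33 windows (Adam19) and in 6.36% of all. The hypoxia response core ACGTG occurred in 5 of 33 and 16.9%, the TATA box TATAAA in 5 of 33 and 13.1%, and the Runx letters TGTGGT in 1 of 33 and 14.1%, each counted on both strands. A match or its lack describes the letters of these windows alone.

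Of the 10 ADAM genes grouped here as having a catalytic zinc site 8 were tested, of which 4 rose, 1 fell and 3 did not pass. Adam8, a protease of leukocyte membranes that sheds adhesion and immune receptors, had by far the largest change. It stood at 3.88 TPM in PBS 1, 5.12 TPM in PBS 2, 92.7 TPM in AdMSC 1 and 135 TPM in SyMSC 1. The injected libraries were more than an order of magnitude above both PBS libraries, and the mean was 25.3-fold higher (log2 change 4.37 with a standard error of 0.22, limma adjusted p = 0.000239). Adam8 was the lowest of the 8 tested ADAMs of this group in both PBS libraries, and second only to Adam15 in both injected libraries. Its share of their summed level went from 1.10% and 1.44% to 16.5% and 24.1%. The neutrophil and macrophage markers given above moved in the same direction, and their part in the rise of Adam8 was not tested.

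Smaller rises were seen for 3 other catalytic ADAMs. Adam10, the sheddase that makes the first activating cut in Notch receptors, went from 18.2 and 21.6 TPM to 31.9 and 32.7 TPM (log2 change 0.68 with a standard error of 0.14, limma adjusted p = 0.00941). Adam19 went from 17.7 and 16.5 TPM to 26.2 and 30.4 TPM (log2 change 0.69 with a standard error of 0.14, limma adjusted p = 0.00892). Adam15, the most abundant ADAM in every library, went from 156 and 171 TPM to 249 and 220 TPM (log2 change 0.52 with a standard error of 0.13, limma adjusted p = 0.0205). In these 3 genes the groups did not overlap, as in 78.8% of all tested genes, and the calls differed in firmness. Adam19 passed under all alternatives, Adam10 was lost without PBS 1 (limma adjusted p = 0.0576), and Adam15 was lost without AdMSC 1 (0.0688), PBS 1 (0.125) or PBS 2 (0.0638).

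Adam17, which releases TNF from the cell surface, was close to level, with 43.5 and 42.1 TPM against 47.2 and 47.5 TPM (log2 change 0.14 with a standard error of 0.12, limma adjusted p = 0.351). Adam9, another broadly expressed sheddase, was at 74.3 and 77.9 TPM with PBS and 85.8 and 77.7 TPM after injection (limma adjusted p = 0.528). Adam12, a protease known from regenerating muscle and activated stromal cells, followed the titles more than the treatment. It stood at 33.8 TPM in PBS 1 and 29.7 TPM in AdMSC 1, and at 15.4 TPM in PBS 2 and 17.9 TPM in SyMSC 1 (limma adjusted p = 0.982). The single gene of this group that fell was Adam33, a gene of mesenchymal cells linked to asthma in human studies. It went from 4.37 and 7.15 TPM to 1.12 and 0.6 TPM (log2 change -1.84 with a standard error of 0.27, limma adjusted p = 0.00286).

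**Figure D3:**
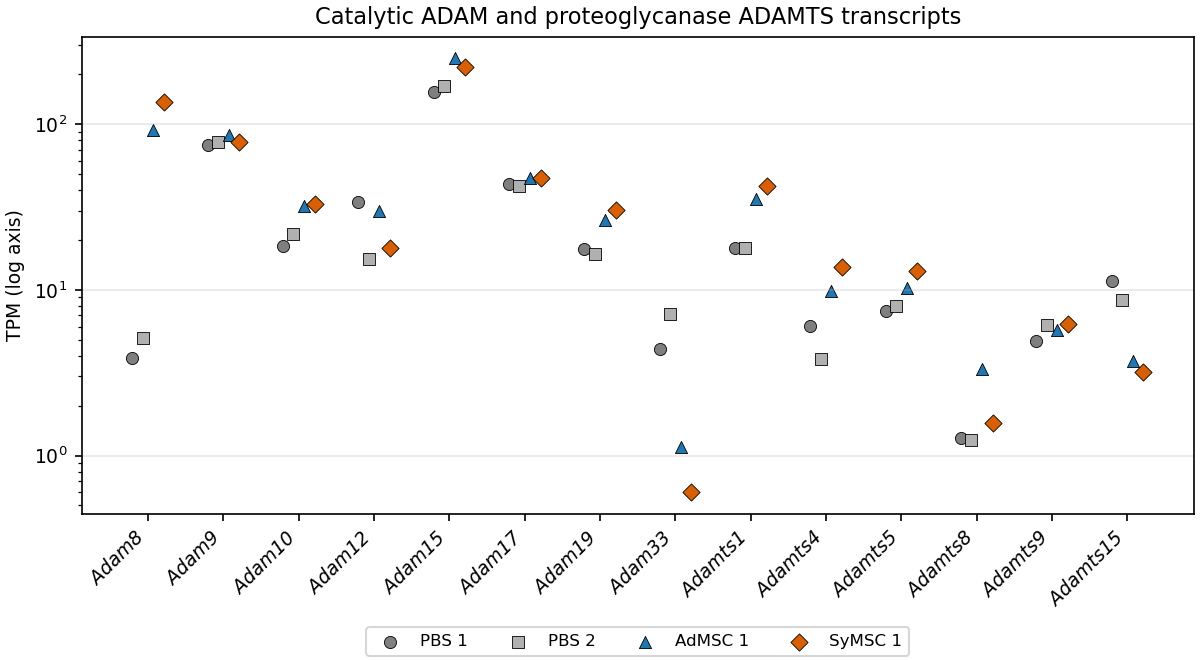
TPM (logarithmic vertical axis) of the 8 tested catalytic ADAM genes and the 6 tested proteoglycan-cleaving ADAMTS genes, 1 symbol per library. Adam8 shows the widest gap between PBS and injected libraries, Adam9 and Adam17 almost none, and Adam12 a gap between the title arms.

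Of the 8 other ADAM genes 3 reached the filter, and all 3 fell. Adam22 and Adam23 lack a working catalytic site and are known as receptors for LGI proteins in the nervous system. Adam23 went from 5.75 and 4.29 TPM to 2.13 and 1.65 TPM (log2 change -1.05 with a standard error of 0.21, limma adjusted p = 0.00863). Adam22 went from 2.24 and 1.43 TPM to 0.48 and 0.1 TPM (limma adjusted p = 0.0106), and Adam1a, known from mouse testis, from 1.33 and 1.25 TPM to 0.460 and 0.480 TPM (limma adjusted p = 0.0248). The last 2 rest on levels near 1 TPM and entered the test only through the PBS libraries, so their calls are descriptions. Adam22 was lost without SyMSC 1 (limma adjusted p = 0.0626), and Adam1a without AdMSC 1 (0.115) or SyMSC 1 (0.111).

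Of the 6 proteoglycan-cleaving ADAMTS genes tested, 3 rose, 1 fell and 2 did not pass. Adamts1, which cleaves versican and aggrecan, was the most abundant of them in every library. It stood at 17.9 TPM in PBS 1, 17.8 TPM in PBS 2, 35.2 TPM in AdMSC 1 and 42.2 TPM in SyMSC 1 (log2 change 1.07 with a standard error of 0.14, limma adjusted p = 0.00209). The PBS libraries were nearly equal, and the mean was 2.17-fold higher after injection. Adamts4, the aggrecanase known to be induced by inflammatory cytokines, was at 6.04, 3.84, 9.90 and 13.7 TPM in the same order (log2 change 1.11 with a standard error of 0.25, limma adjusted p = 0.0120). It was lost without SyMSC 1 (limma adjusted p = 0.0585). The Adamts4 level is uncertain, since the use of strand in counting is not stated.

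Adamts5, the other main aggrecanase, moved less, from 7.42 and 7.94 TPM to 10.3 and 12.9 TPM (log2 change 0.53 with a standard error of 0.17, limma adjusted p = 0.0402). Its call lay near the threshold and was lost with upper-quartile scaling (0.0604), with no filter on low values (0.0639), and without PBS 1 (0.136), PBS 2 (0.0932) or SyMSC 1 (0.182). Adamts15 was the one gene of the group that fell, from 11.3 and 8.67 TPM to 3.72 and 3.18 TPM (log2 change -1.30 with a standard error of 0.19, limma adjusted p = 0.00299). Adamts9 did not pass, at 4.88 and 6.13 TPM with PBS and 5.71 and 6.22 TPM after injection (limma adjusted p = 0.657). Adamts8 stood at 1.28 and 1.24 TPM with PBS, 3.32 TPM in AdMSC 1 and 1.57 TPM in SyMSC 1. It did not pass (limma adjusted p = 0.138) except when SyMSC 1 was left out (log2 change 0.93, limma adjusted p = 0.0384). In the RefSeq gene order Adamts1 and Adamts5 are neighbours and both rose, whereas the neighbours Adamts8 and Adamts15 did not move alike.

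Summed over the group, the proteoglycan-cleaving genes were at 49.0 and 45.6 TPM with PBS and at 68.2 and 79.8 TPM after injection. Adamts1 made up 36.5% and 39.0% of that sum with PBS and 51.6% and 52.9% after injection, while Adamts15 went from 23.2% and 19.0% to 5.45% and 3.99%. The share of Adamts5 was similar in all libraries, between 15.1% and 17.4%.

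**Figure D4:**
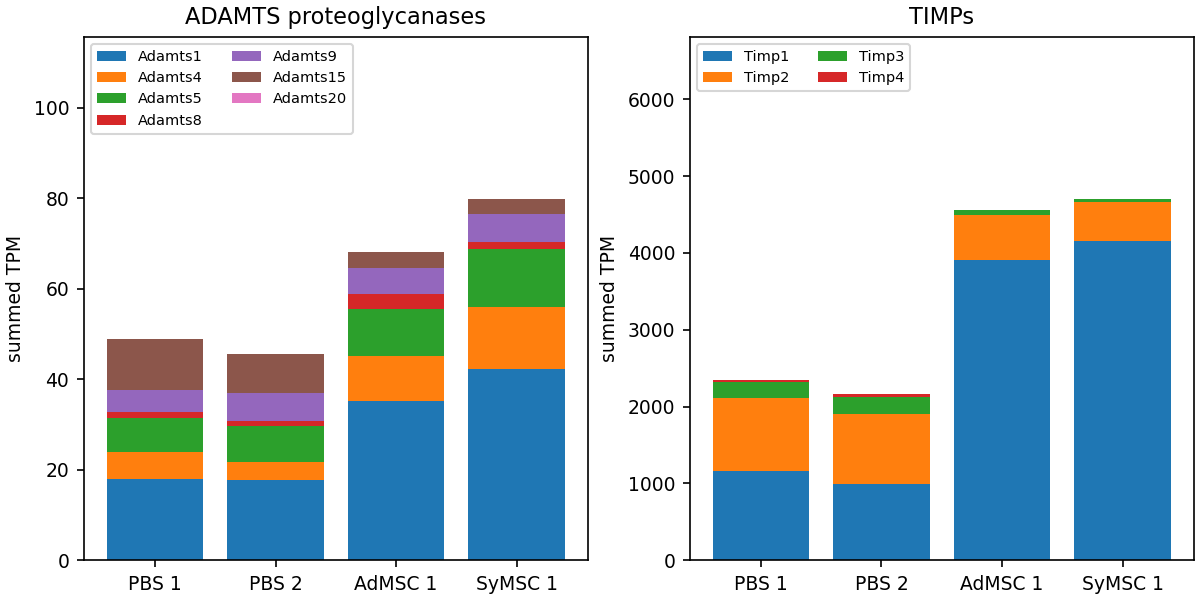
Summed TPM (vertical axes, from 0) of the proteoglycan-cleaving ADAMTS genes (left) and of the TIMP genes (right) in each library, stacked by gene. The share of Adamts15 is smaller and that of Adamts1 larger in the injected libraries, and Timp1 fills most of the TIMP bar there.

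Both procollagen N-proteinases that were tested fell. These enzymes remove the amino-terminal propeptide of fibrillar collagens. Adamts2 went from 60.3 and 51.9 TPM to 25.4 and 20.6 TPM (log2 change -1.25 with a standard error of 0.16, limma adjusted p = 0.00175). Adamts14 went from 11.6 and 9.85 TPM to 3.83 and 3.93 TPM (log2 change -1.26 with a standard error of 0.17, limma adjusted p = 0.00207). The groups were well apart in both genes. The collagen gene Col1a1, whose product they process, fell from 12541 and 8181 TPM to 3404 and 2257 TPM (log2 change -1.87, limma adjusted p = 0.00532).

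Of the 6 other ADAMTS genes tested, 5 fell and 1 did not pass. Adamts7 and Adamts12 are close relatives that cleave cartilage oligomeric matrix protein. Adamts7 went from 29.3 and 27.7 TPM to 10.8 and 9.77 TPM (log2 change -1.39 with a standard error of 0.13, limma adjusted p = 0.000801), and Adamts12 from 26.6 and 25.4 TPM to 11.4 and 8.46 TPM (log2 change -1.31 with a standard error of 0.17, limma adjusted p = 0.00198). The injected means were 0.361 and 0.383 times the PBS means. Their substrate gene Comp fell too, from 561 and 650 TPM to 81.6 and 49.5 TPM (log2 change -3.23, limma adjusted p = 0.000577).

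Adamts10 and Adamts17 are tied by human Weill-Marchesani disease to fibrillin microfibrils. Adamts10, the most abundant of the 6 with PBS, went from 54.7 and 61.4 TPM to 21.2 and 20.8 TPM (log2 change -1.42 with a standard error of 0.13, limma adjusted p = 0.000660). Adamts17 went from 4.62 and 3.60 TPM to 0.440 and 0.420 TPM (log2 change -1.83 with a standard error of 0.19, limma adjusted p = 0.00103). Since Adamts17 entered the test only through the PBS libraries, its call is a description. Adamts6, the closest relative of Adamts10, did not pass, at 6.08 and 4.69 TPM with PBS and 7.40 and 5.17 TPM after injection (limma adjusted p = 0.525). Adamts16 was at 10.5 TPM in both PBS libraries, 6.62 TPM in AdMSC 1 and 3.67 TPM in SyMSC 1 (log2 change -0.94 with a standard error of 0.25, limma adjusted p = 0.0230). That call was lost with no filter on low values (0.0560) and without PBS 1 (0.0693), PBS 2 (0.0712) or SyMSC 1 (0.0606), where the log2 change was -0.59.

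In the ADAMTSL group 4 of 5 genes fell and Adamtsl1 did not pass. Adamtsl4, which binds fibrillin-1 and is mutated in human lens dislocation, was the most abundant of them. It stood at 112 TPM in PBS 1, 139 TPM in PBS 2, 22.1 TPM in AdMSC 1 and 18.5 TPM in SyMSC 1 (log2 change -2.57 with a standard error of 0.16, limma adjusted p = 0.000303). The injected mean was 6.19-fold lower, with no overlap, as in 78.8% of all tested genes. Adamtsl5, another fibrillin-binding member, went from 23.4 and 31.2 TPM to 7.51 and 6.74 TPM (log2 change -1.79 with a standard error of 0.18, limma adjusted p = 0.000877). Adamtsl2, mutated in human geleophysic dysplasia, went from 3.25 and 4.68 TPM to 0.960 and 0.930 TPM (limma adjusted p = 0.00366), and Adamtsl3 from 2.26 and 1.37 TPM to 0.660 and 0.250 TPM (limma adjusted p = 0.0212; lost without SyMSC 1, 0.115). Both Adamtsl2 and Adamtsl3 entered the test only through the PBS libraries, so their calls are descriptions. Adamtsl1 was at 6.16 and 4.84 TPM with PBS and 5.54 and 3.15 TPM after injection (limma adjusted p = 0.360).

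Between the groups 10 of 34 genes had both injected libraries above both PBS libraries and 19 had both below. Over all tested genes 39.5% lay above and 39.4% below, 78.8% together. Adam17 and Adamts8 were the genes among the 10 that did not pass, besides the 8 that rose, and the 19 below were those that fell.

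Each injected library was also set against the PBS library of its own title arm, without a test because 1 library stood against 1. Listing required a ratio of TPM + 1 of 2 or more, with 5 TPM or more on the higher side. In AdMSC 1 against PBS 1, 2 genes were listed as higher (9.0% of all tested genes were) and 11 as lower (9.89% of all). In SyMSC 1 against PBS 2, 4 were listed as higher (10.4% of all) and 12 as lower (12.2% of all). Adam8 and Timp1 were higher in both arms, and Adamts1 and Adamts4 in the Sy arm. Adamts2, Adamts7, Adamts10, Adamts12, Adamts14, Adamts15, Adamtsl4, Adamtsl5, Timp3 and Timp4 were lower in both, Adam23 in the Ad arm, and Adam33 and Adamts16 in the Sy arm. The log2 ratio of Timp3 was -1.66 in the Ad arm and -2.63 in the Sy arm, that of Timp4 -2.62 and -3.46, and that of Adamts4 0.63 and 1.60. Of the 34 genes 32 had the same sign in both arms, as did 86.6% of all tested genes.

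**Figure D5:**
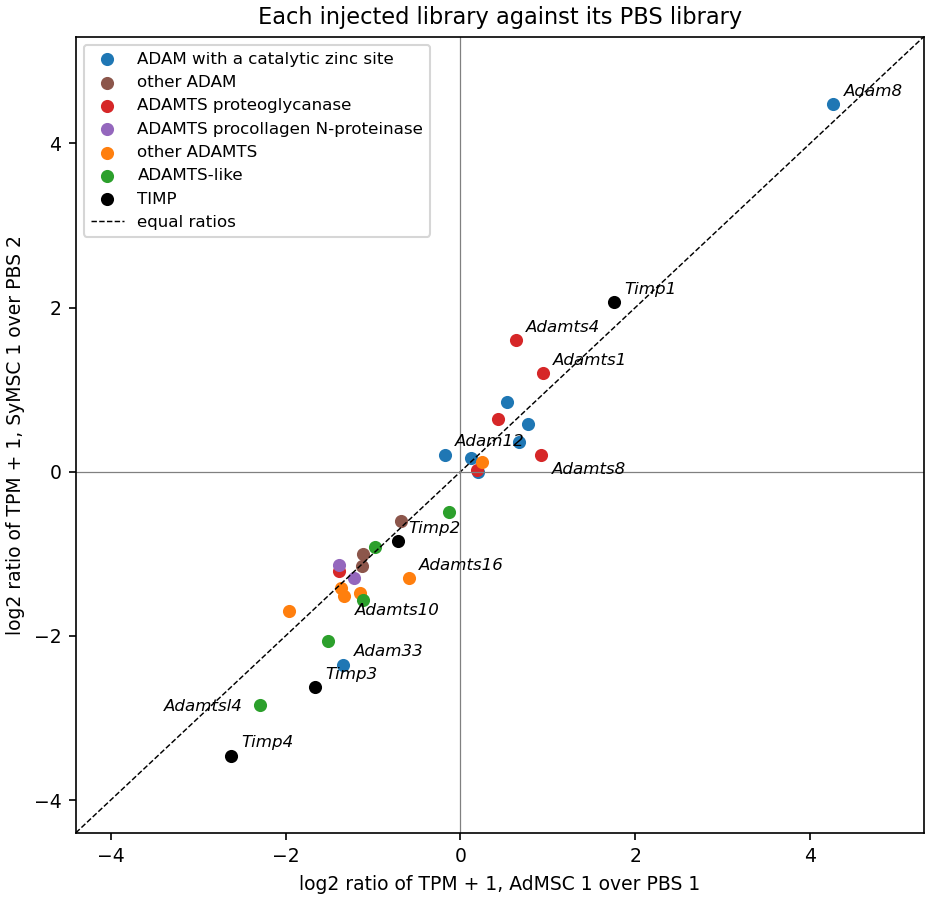
Log2 ratio of TPM + 1 of AdMSC 1 over PBS 1 (horizontal axis) and of SyMSC 1 over PBS 2 (vertical axis), 1 point per gene, coloured by group, with a dashed line of equal ratios. Adam8 lies at 4.26 and 4.48, and Timp3, Timp4 and Adamtsl4 lie below the line.

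The difference between the human cell sources was tested with limma on 3 groups, in which the spread comes from the PBS pair alone and a lone injected library is assumed to vary as those do. In SyMSC 1 against AdMSC 1, 0 of 34 genes passed (0.0% of all tested genes), and 3 had an unadjusted p under 0.05. These were Timp3 (SyMSC minus AdMSC, log2 -0.88, standard error 0.16, limma adjusted p = 0.453), Adamts16 (-0.71, standard error 0.23, adjusted p = 0.725) and Adamts8 (-0.75, standard error 0.28, adjusted p = 0.764). By the ratio rule 0 genes were listed in either direction (1.1% of all tested genes were higher in SyMSC 1 and 0.546% lower). A test with 1 residual degree of freedom does not show that the cell sources act alike. The PBS libraries differed past the same ratio in 1 of the 34 genes, Adam12, higher in PBS 1 (0.972% of all tested genes were).

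Other genes on which proteins of these families act, or which act on them, were taken from lists. Their counts stand beside 23.7% of all tested genes that rose and 24.7% that fell. Of 28 tested substrates of Adam10 and Adam17 in a list of 32, 11 rose, 9 fell and 8 did not pass, with a median log2 change of -0.02. The rises included the TNF receptor gene Tnfrsf1b, from 20.4 and 19.9 TPM to 63.2 and 91.2 TPM (log2 change 1.86, limma adjusted p = 0.000939). The decoy receptor gene Il1r2 rose from 2.38 and 8.45 TPM to 216 and 423 TPM (5.75, limma adjusted p = 0.00994), a call lost without AdMSC 1 (0.0715) or SyMSC 1 (0.0917). The membrane chemokine gene Cx3cl1 fell from 8.16 and 9.71 TPM to 1.68 and 2.07 TPM (-1.79, limma adjusted p = 0.00101). Il1r2 is also one of the neutrophil genes counted above. Some other genes of this list are likewise among the macrophage and endothelial genes counted there.

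Of 16 tested regulators in a list of 19, 2 rose, 7 fell and 7 did not pass (median -0.12). The genes that rose, named here after their values were seen, were Furin, the convertase that removes the propeptide of many ADAM and ADAMTS precursors, and Rhbdf2, which encodes iRhom2, the partner that brings Adam17 to the surface of immune cells. Furin went from 33.2 and 31.7 TPM to 97.5 and 95 TPM (log2 change 1.54, limma adjusted p = 0.000456), and Rhbdf2 from 16.2 and 15.4 TPM to 38.0 and 47.0 TPM (1.36, limma adjusted p = 0.00116). The related Rhbdf1 fell from 32.7 and 36.7 TPM to 20.2 and 17.3 TPM (-0.86, limma adjusted p = 0.00461). Another convertase gene, Pcsk6, fell from 87.5 and 105 TPM to 18.2 and 13.5 TPM (-2.54, limma adjusted p = 0.000382). Reck, a membrane-bound inhibitor of metalloproteinases, fell from 33.6 and 34.3 TPM to 9.46 and 6.72 TPM (-1.96, limma adjusted p = 0.000675). Papln, which encodes papilin, a relative of the ADAMTSL proteins, is also among the 7, at 2.27 and 3.90 TPM with PBS and 0.110 and 0.0600 TPM after injection, but it entered the test only through the PBS libraries, so its call is a description. Sfrp2 fell from 104 and 214 TPM to 19.7 and 7.82 TPM (-3.48, limma adjusted p = 0.0209), and was lost without SyMSC 1 (0.0853), PBS 1 (0.0659) or PBS 2 (0.0911).

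Of 19 tested matrix substrates and fibrillin partners in a list of 22, 3 rose, 10 fell and 6 did not pass (median -1.05). Versican (Vcan) rose, from 123 and 111 TPM to 183 and 200 TPM (log2 change 0.71, limma adjusted p = 0.00609). The other rises, Thbs1 (limma adjusted p = 0.0470) and Ltbp2 (0.0384), were near the threshold. Thbs1 was lost with median-ratio scaling (0.0629), upper-quartile scaling (0.0742), no filter on low values (0.0781), the title arm as a block (0.0530), TPM rescaled without the most abundant genes (0.0546), and without PBS 1 (0.136), PBS 2 (0.191) or SyMSC 1 (0.0507). Ltbp2 was lost with no filter (0.0791) and without AdMSC 1 (0.121), PBS 1 (0.1) or PBS 2 (0.105). One of the 10 falls, Fbn2, named here after its values were seen, had reached 1 TPM only in the PBS libraries. Among the others, besides Comp, were the small proteoglycans fibromodulin (Fmod), from 721 and 571 TPM to 68.4 and 45.9 TPM (-3.49, limma adjusted p = 0.000334), and biglycan (Bgn), from 4447 and 3782 TPM to 1273 and 781 TPM (-2.04, adjusted p = 0.00202). Vwf, which encodes von Willebrand factor, fell from 35.5 and 37.0 TPM to 7.31 and 8.37 TPM (-2.08, limma adjusted p = 0.000323). It is also one of the endothelial genes counted above, most of which fell. Aggrecan (Acan) was at 47.4 and 25.2 TPM with PBS and 15.2 and 6.59 TPM after injection, and did not pass (limma adjusted p = 0.0651); it passed with median-ratio scaling (0.0478), upper-quartile scaling (0.0485), the title arm as a block (0.00338) and without AdMSC 1 (0.0396). Of 9 microfibril and elastic fibre genes 7 fell, 1 rose (Emilin1, 0.66) and 1 did not pass (median -1.78). Mfap2 went from 518 and 619 TPM to 46.1 and 25.5 TPM (-4.0, limma adjusted p = 0.000742), and elastin (Eln) from 460 and 563 TPM to 88.1 and 39.1 TPM (-3.09, limma adjusted p = 0.00715; lost without PBS 1, 0.0589, or PBS 2, 0.0681). Fbln5 and Mfap5 fell as well (-2.24 and -2.02), the latter lost without PBS 1 (limma adjusted p = 0.0922) or PBS 2 (0.102).

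The 11 genes below the filter were Adam2, Adam4, Adam4l1, Adam11, Adam28, Adam30, Adam32, Adamts3, Adamts18, Adamts19 and Adamts20. Just outside it lay Adamts19, with 0.560 and 1 TPM in the PBS libraries and 0.180 TPM in both injected ones, and Adam11, with at most 0.770 TPM. Just inside lay Adam1a, whose values are given above. Several members lie within or across another gene in the RefSeq annotation. Timp1, Timp3 and Timp4 overlap the synapsin genes Syn1, Syn3 and Syn2, which were at 1.51 to 3.79, 0.0400 to 1.03 and 0.05 to 0.4 TPM, far below the inhibitor in each library. Timp2 overlaps Cep295nl, which was at 1.70 to 2.27 TPM.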

How the data were processed

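Messenger RNA was measured in 4 bulk synovium libraries. Per the labels' protocols, RNA captured with oligo-dT beads was made into libraries with a dUTP-marked second strand and sequenced on a BGISEQ-500. Per the file headers the authors deposited TPM, with a fixed sum over 17899 rat genes. The submitters' processing notes name HISAT2 2.0.4 and the build Rnor_6.0. How reads were counted, on which annotation, whether by strand, and whether human reads were set apart is not given in the sources used here. Depth is lost in TPM, so no counting interval can be given, and a rise of abundant genes lowers the share of all others.

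Groups follow the treatment label. The genes were found by symbol, and all 45 gene IDs were found in RefSeq (GRCr8), which was used for names, gene order, overlaps and promoter sequences. Values were taken as log2(TPM + 1), and the 13371 genes that reached 1 TPM in 2 or more libraries entered a fit with limma 3.58.1, R 4.3.3 (trend and robust options, 2 residual degrees of freedom), with Benjamini-Hochberg adjustment over all of them and a threshold of 0.05. A fit with 3 groups (AdMSC, SyMSC, PBS) served for SyMSC against AdMSC. The test was tried on simulated data first. All genes above the filter may be named; from each other list up to 4 called genes with the largest change were named, and further names are said to be chosen after their values were seen or are the genes that a sentence on the members turns on (Col1a1, Rhbdf1, Vcan, Thbs1, Ltbp2, Acan, Emilin1, Prg4, Pdpn). A gene that this rule names is not reported here. Members and lists were chosen with earlier results of these data known. Alternatives were other scalings, no filter, an added 0.1 in place of 1, a block for the title arm, leaving out 1 library at a time, TPM rescaled without the most abundant genes, and other limits for single pairs.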

Additional observations from a re-analysis of the deposited data

Results flagged for a closer look

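Opposite signs in the title arms were seen for 2 of the 34 genes, and the difference between arms was not tested. For Adam12 the log2 ratio of TPM + 1 was -0.18 in AdMSC 1 against PBS 1 and 0.21 in SyMSC 1 against PBS 2, a difference (Sy minus Ad) of 0.38. For Adam9 the ratios were 0.21 and -0.0038, a difference of -0.21. Neither gene passed in the comparison of injected with PBS libraries.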

How the results depend on the processing

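Of the 27 genes called between injected and PBS libraries, 19 stayed called under all alternatives in which they could be tested, and 25 under all those that kept the 4 libraries. The exceptions are named with their values in the report. Of the 34 genes 8 rose and 19 fell with median-ratio scaling, a pseudocount of 0.1, TPM rescaled without haemoglobin and the 10 most abundant genes, and the title arm as a block. The replicate block thus gave 8 and 19 as well. The titles give no replicate numbers, and the difference between injected libraries correlated with that between PBS libraries over genes at only r = 0.12. With upper-quartile scaling 7 rose and 19 fell. With no filter all 45 genes were tested, and of these 7 rose and 20 fell. These counts take in genes outside the 34, while Adamts5 and Adamts16 lost their calls. With 1 library left out (1 residual degree of freedom), 5 to 7 rose and 13 to 18 fell. Without a PBS library the 5 genes that passed the filter through PBS alone were not tested.

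Signs turned only in genes that did not pass. Adam12 (0.014) was -0.037 with upper-quartile scaling and -0.53 to 0.56 with 1 library left out, Adamts9 (0.10) -0.035 to 0.24, Adamts6 (0.18) -0.041 to 0.40 and Adamtsl1 (-0.31) -0.64 to 0.016. For single pairs, a ratio of 1.5 listed 6 genes as higher in AdMSC 1, and a ratio of 3 listed 3 as lower in AdMSC 1 and 5 in SyMSC 1. Other limits and exchanged PBS libraries kept counts within 1.5 times. SyMSC against AdMSC gave 0 calls under each alternative run; leaving out a library leaves no residual degree of freedom or no group there and was not run.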
